A study of Mus musculus with 18 samples.

Results

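Gene expression was compared between 2 kinds of CD4 T cell sorted from the same kind of tumour, B16, a transplantable mouse melanoma line. The comparison rests on 4 Affymetrix arrays of the 18 in the series: 2 titled B16_Treg and 2 titled B16_Teff. All 4 samples came from Foxp3GFP mice, a reporter strain in which cells that express Foxp3 make green fluorescent protein (GFP), aged 6 to 8 weeks. CD4 cells were enriched on beads and sorted on GFP in a double sort, as Foxp3-positive (Treg) or Foxp3-negative (Teff) CD4+ T cells from tumours. The 4 arrays of spleen and lymph node cells of the same strain, 2 Treg and 2 Teff, sit in the same table, helped to estimate the spread and served as the point of comparison. The labels do not say whether replicates came from separate animals, so the p-values measure only the spread between these arrays, and the small number of arrays limits the precision. The labels leave out tumour size, tumour stage and the sex of the mice.

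Regulatory T (Treg) cells are CD4 T cells that restrain other immune cells. The transcription factor Foxp3 defines the lineage, and Treg cells use surface receptors such as CTLA-4 and CD25, soluble mediators and competition for interleukin-2. In tumours they often carry an activated, tissue-type profile and are studied because they can dampen responses against the tumour. Teff here names the Foxp3-negative CD4 cells, a mixture that can hold naive, memory, helper and exhausted cells.

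The check of the labels gave a mixed answer. Foxp3 read 3.20 and 3.30 on the Treg arrays and 3.18 and 3.13 on the Teff arrays, as log2 expression values. The Treg and Teff arrays differed by 0.10 (SE 0.0907, adjusted p = 0.506), while the same probe set differed by 6.85 (adjusted p = 9.21e-09) between Treg and Teff arrays of spleen and lymph node. All 4 tumour values lay under the lower quartile of their array, so the transcript whose reporter defined the sort did not follow the label in the tumour, and every direction given here rests on that label. On the Treg arrays of spleen and lymph node, of the same strain, the probe set read 9.99 and 9.95. The labels do not place the reporter insert relative to this probe set, and the part of the insert in the tumour reading was not tested. Because of this, "Treg arrays" and "Teff arrays" below mean the arrays labelled so. The 8 measured T cell genes (Cd3e, Cd3d, Cd3g, Cd4, Cd2, Cd5, Lck and Cd247) had a summed level on the linear scale of 28740 and 31390 on the Treg arrays against 21500 and 24440 on the Teff arrays. Of these, 4 were called higher and 1 lower in Treg arrays, but 1 higher without Teff array 1 or Treg array 2. These are bulk samples, in which fewer cells of a type and less RNA per cell cannot be told apart.

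Of 22626 probe sets, 5300 (23.4%) differed between Treg and Teff arrays of the tumour at an adjusted p under 0.05 (limma, with Benjamini-Hochberg adjustment over all probe sets). All differences given are Treg minus Teff on the log2 scale, on which 1 unit is a 2-fold change. With 1 probe set per gene, 3290 of 13231 genes (24.9%) were called, 1807 higher (13.7%) and 1483 lower (11.2%) in Treg arrays. Of the called genes, 394 were higher and 366 lower by at least 2-fold, and the falls reached further: 54 genes were lower by at least 8-fold and 16 were higher by as much. Leaving out 1 tumour array gave 2225 to 2557 called genes, and without Treg array 1 the lower calls fell from 1483 to 968. The median difference over all genes tested was 0.01, and the median SE of a gene was 0.108. The 2 arrays of a group correlated at 0.997 (Treg) and 0.996 (Teff) over all probe sets, a description across probe sets.

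**Figure D1:**
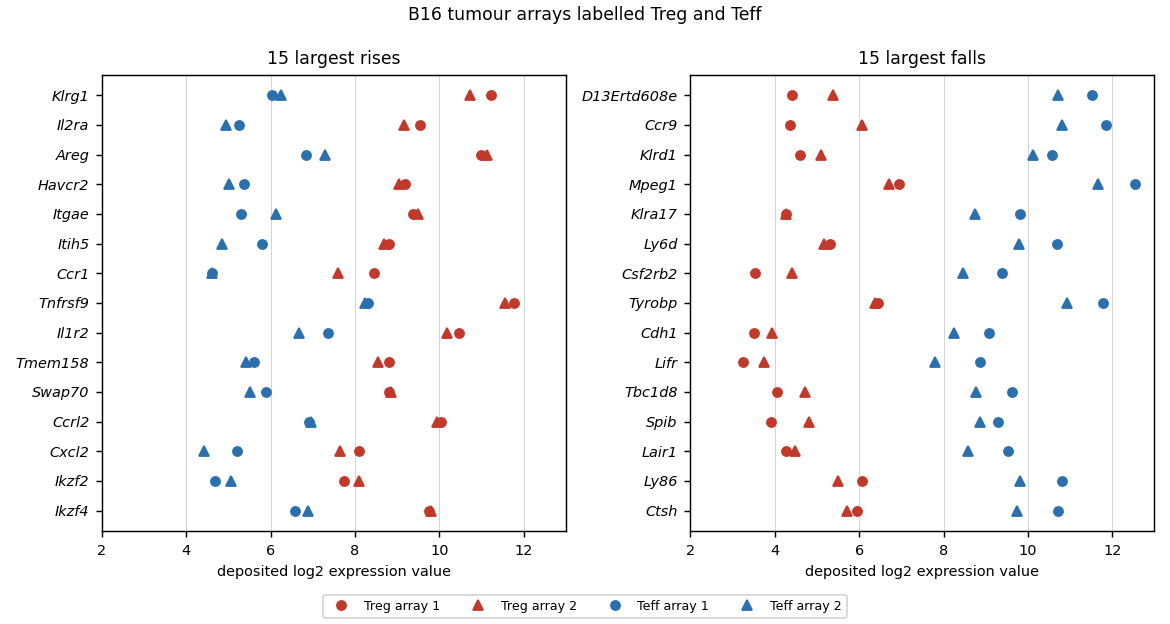
Deposited log2 expression value (x axis) of the 15 genes with the largest rises (left) and the 15 with the largest falls (right) on each of the 4 tumour arrays, red for Treg and blue for Teff, circles for array 1 and triangles for array 2. The groups do not overlap for any of the 30 genes, which the selection required, and in all 15 falls Teff array 1 lies above Teff array 2.

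Several of the genes that rose most in Treg arrays encode surface receptors, soluble mediators and transcription factors known from activated Treg cells. Klrg1, a lectin-like receptor of terminally differentiated T cells, read 11.23 and 10.72 on the Treg arrays and 6.04 and 6.24 on the Teff arrays, and rose by 4.84 (SE 0.179, adjusted p = 2.41e-06). Il2ra, the CD25 chain that gives the interleukin-2 receptor its high affinity, read 9.54 and 9.16 on the Treg arrays and 5.24 and 4.95 on the Teff arrays, a rise of 4.25. Areg, the epidermal growth factor family ligand amphiregulin, known in Treg cells for tissue repair, read 10.99 and 11.12 on the Treg arrays and 6.85 and 7.29 on the Teff arrays. Its rise of 3.99 was the third in size, and the arrays of the groups were apart by more than 3 log2 units. Itgae, the alpha chain of the E-cadherin-binding integrin CD103, rose by 3.72, Tnfrsf9, the costimulatory receptor 4-1BB, by 3.38, and Il1r2, the decoy receptor that binds interleukin-1 without signalling, by 3.31. Swap70, a signalling protein that binds actin and phosphoinositides, rose by 3.12, Ccrl2, an atypical receptor that binds chemerin, by 3.06, and Itih5, of the hyaluronan-binding inter-alpha-trypsin inhibitor family, by 3.43. The others of the 15 were Havcr2 (3.93), Ccr1 (3.41) and Cxcl2 (3.06), described with their families, Tmem158 (3.17), and the transcription factor genes Ikzf2 (3.05) and Ikzf4 (3.05).

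Treg core genes, such as those for the receptors CTLA-4, GITR and OX40, were mostly higher: 18 of 26 measured members were higher and 1 lower, with a median difference of 1.82. Among transcription factors, Ikzf2 (Helios) read 7.74 and 8.10 on the Treg arrays and 4.68 and 5.05 on the Teff arrays, and Ikzf4 (Eos), a partner of Foxp3 in repression, read 9.76 and 9.79 on the Treg arrays and 6.56 and 6.89 on the Teff arrays. Neither overlapped between the groups. Of all 13231 genes, 4227 did not overlap in this direction and 3833 in the other. Ctla4, the inhibitory receptor that competes with CD28, read 13.80 and 13.56 on the Treg arrays and 11.69 and 11.61 on the Teff arrays and rose by 2.03 (adjusted p = 6.92e-06). Tnfrsf4 (OX40) rose by 2.40 and Tnfrsf18 (GITR) by 1.87. Members that did not pass were Foxp3, Gata1 (-0.10), Rgs1 (-0.09), Nrp1 (0.10), Gpr83 (0.11), Plagl1 (0.13) and Nt5e (0.67), and Gpr19 was lower (-0.49). The Gpr19 call was lost on leaving out any 1 tumour array.

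Genes of effector Treg cells, the activated form found in tissues, had 20 of 23 members higher and none lower (median 1.96). Il1rl1, the interleukin-33 receptor ST2, read 9.99 and 9.94 on the Treg arrays and 7.69 and 7.58 on the Teff arrays and rose by 2.33. Gzmb, the cytotoxic protease granzyme B, read 12.09 and 11.88 on the Treg arrays and 9.18 and 9.38 on the Teff arrays, a rise of 2.71. Prdm1, which encodes the transcription factor Blimp-1, rose by 1.80 and Nfil3 by 2.15. The members that did not pass were Maf (0.27), Irf4 (0.38) and Lag3 (0.58). Of the suppressive mediators and enzymes of adenosine metabolism, 11 of 14 were higher and 2 lower (median 1.02). They included Il10, an anti-inflammatory cytokine (2.14), Ebi3, a subunit of interleukin-35 (2.91), Fgl2 (2.56), and Entpd1, the ectoenzyme CD39 that degrades extracellular ATP (1.77). Nt5e (CD73) did not pass (0.67, adjusted p = 0.0549), and Dpp4, the peptidase CD26 (-1.15), and Il12a, another subunit of interleukin-35 (-0.85), were lower. The Il12a call was lost without Treg array 2. Among transcription factors of tissue and effector Treg cells, 10 of 19 were higher and 1 lower (median 0.41), with Pparg, a factor of adipose tissue Treg cells, at 0.97, Rora at 0.86 and Gata3 at 0.72. The lower one was Zeb2 (-0.80), a repressor of the zinc finger family, and its call was lost with the 4 tumour arrays alone and without Teff array 1, Treg array 1 or Treg array 2.

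**Figure D2:**
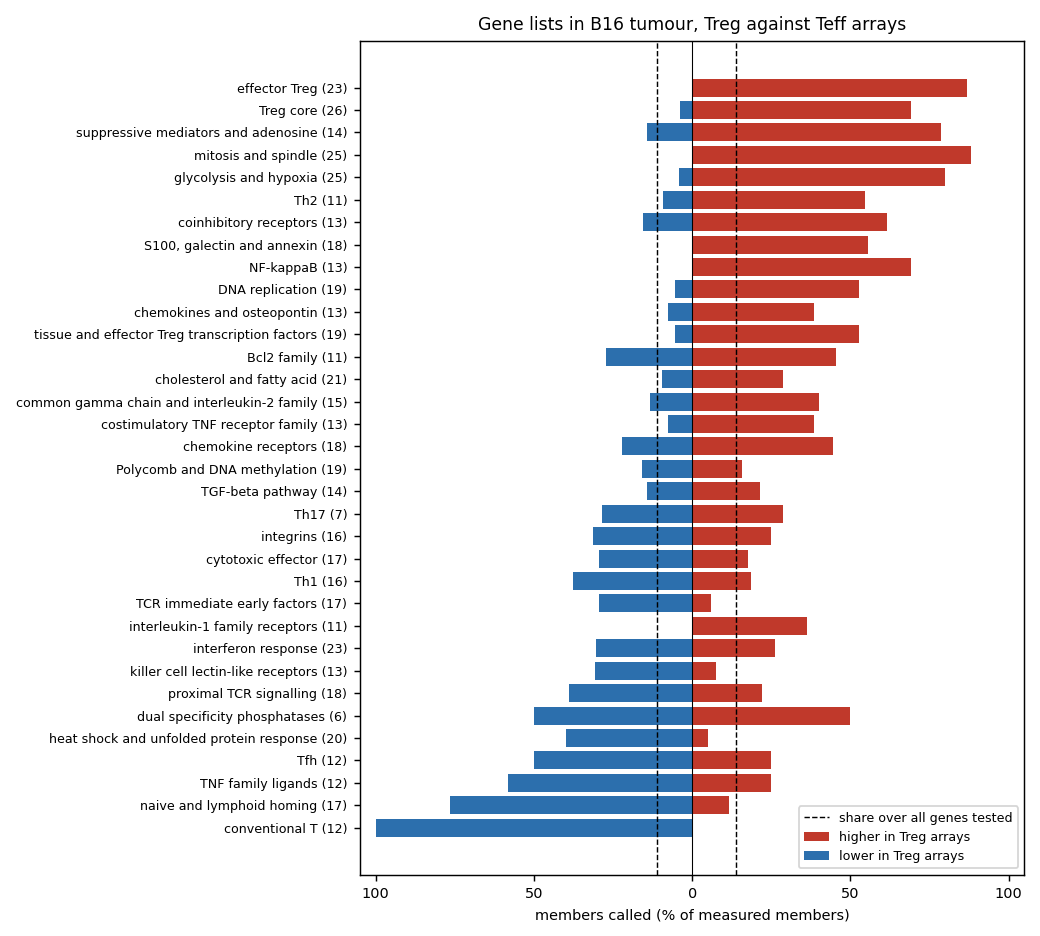
Share of the measured members of each of 34 gene lists (x axis, percent, with the number measured in brackets) called higher (red, right) or lower (blue, left) in Treg arrays than in Teff arrays of the tumour, ordered by median difference. The dashed lines mark the shares over all genes tested, 13.7% higher and 11.2% lower; effector Treg, mitosis and glycolysis lists lie far to the right and conventional T and naive lists far to the left.

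Most measured inhibitory receptors were higher in Treg arrays. Of 13 measured coinhibitory receptors and ligands, 8 were higher and 2 lower (median 0.70). Havcr2, the receptor TIM-3 found on exhausted and highly activated T cells, read 9.18 and 9.04 on the Treg arrays and 5.36 and 5.01 on the Teff arrays. It rose by 3.93 (SE 0.228, adjusted p = 1.27e-05), and no array of one group came near the other. Pdcd1, the receptor PD-1, read 10.96 and 10.97 on the Treg arrays and 9.64 and 9.63 on the Teff arrays and rose by 1.33 (adjusted p = 4.04e-05). The ligand gene Pdcd1lg2 (PD-L2) rose by 2.13 and Cd274 (PD-L1) by 0.70. Lag3 (0.58), Cd160 (0.34) and Vsir (-0.02) did not pass. Lair1, a collagen receptor shared with myeloid cells, fell by 4.68, and Cd96 by 0.47; the Cd96 call was lost with the 4 tumour arrays alone and without Teff array 2 or Treg array 1. The costimulatory receptors of the TNF receptor family had 5 higher and 1 lower of 13, with Tnfrsf1b (TNFR2) at 1.96 and Cd27 at 1.59, and Tnfrsf25 (DR3) at -0.75.

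Ligands of the TNF family were more often lower than higher, with 3 higher and 7 lower of 12 (median -0.54). Tnfsf8, the CD30 ligand, read 5.27 and 5.35 on the Treg arrays and 8.42 and 8.59 on the Teff arrays, a fall of 3.19. Fasl, which triggers death of Fas-bearing cells, read 6.72 and 7.23 on the Treg arrays and 9.39 and 9.79 on the Teff arrays, a fall of 2.62, and Tnfsf11 (RANKL) fell by 1.84. Cd70, the ligand of CD27, rose by 1.46, Tnfsf10 (TRAIL) by 1.19 and Ltb by 0.80. Tnfsf4 (-0.33) and Tnfsf9 (0.42) did not pass. Without Treg array 1 there were 4 lower calls in place of 7.

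Several receptors known to guide T cells into inflamed tissue were higher in Treg arrays, and receptors for traffic through lymphoid organs were lower. Of 18 chemokine and lipid migration receptors, 8 were higher and 4 lower. Ccr8, a receptor of tumour and skin Treg cells, read 7.66 and 7.68 on the Treg arrays and 4.91 and 4.79 on the Teff arrays and rose by 2.82 (SE 0.238, adjusted p = 7.89e-05). Ccr1, a receptor for inflammatory chemokines, read 8.44 and 7.59 on the Treg arrays and 4.60 and 4.61 on the Teff arrays, and Ccr2, the receptor for CCL2, read 11.24 and 11.02 on the Treg arrays and 9.05 and 9.42 on the Teff arrays. They rose by 3.41 and 1.90. Ccr6 (1.50), Ccr3 (1.36), Cx3cr1 (1.04) and Ccr4 (0.90) also rose, Ccr4 without its call when Teff array 1 or Treg array 2 was left out. S1pr1, needed to leave lymph nodes, fell by 2.05, and Ccr7, which brings T cells into lymph nodes, by 1.04; Cxcr5, which leads into B cell follicles (-0.64), and Ccr9 were lower too. The Cxcr5 call was lost with the 4 tumour arrays alone and without Teff array 1, Teff array 2, Treg array 1 or any 1 spleen array. Cxcr6, a receptor of tissue-resident T cells, did not pass (-0.55, adjusted p = 0.219). Cxcr3 (0.16), Cxcr4 (-0.14), Ccr10 (-0.13), Ackr3 (0.06) and Xcr1 (0.14) did not pass either. Among 13 chemokines and osteopontin, 5 were higher and 1 lower, with the neutrophil attractant Cxcl2 at 3.06, Ccl9 at 1.47, Ccl5 at 0.82 and Ccl4 at -1.12, a call lost without Treg array 1.

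Genes of conventional and naive T cells were mostly lower. All 12 measured conventional T genes were lower (median -2.64), and of 17 naive and lymphoid homing genes 13 were lower and 2 higher (median -2.05). Tcf7, which encodes TCF-1, a transcription factor of naive, memory and stem-like T cells, read 7.24 and 7.41 on the Treg arrays and 11.57 and 11.69 on the Teff arrays, a fall of 4.31 (SE 0.107, adjusted p = 8.62e-07). Bach2, a repressor that keeps T cells undifferentiated, read 5.50 and 5.65 on the Treg arrays and 9.29 and 9.39 on the Teff arrays, a fall of 3.76. The replicate arrays of both genes lay within 0.2 of each other and the groups were far apart. Il2, the growth cytokine that Treg cells take up but hardly make, read 4.25 and 3.97 on the Treg arrays and 8.20 and 8.27 on the Teff arrays, a fall of 4.12. Satb1, a chromatin organiser that Foxp3 represses, fell by 2.83 and Lef1, a relative of Tcf7, by 2.44. Klf2, a transcription factor that drives S1pr1, read 9.46 and 9.96 on the Treg arrays and 11.72 and 11.90 on the Teff arrays, a fall of 2.11. Ets1 (-0.06) and Foxo1 (-0.04) did not pass, and Cd27 and Itgb7 (0.78) were higher.

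Among the effector cytokines of helper T cells, Th1 genes had 3 higher and 6 lower of 16 and Th2 genes 6 higher and 1 lower of 11. Ifng, the main Th1 cytokine, read 7.76 and 8.40 on the Treg arrays and 8.96 and 9.50 on the Teff arrays, a fall of 1.16 (adjusted p = 0.0067), while Tbx21 (T-bet), its transcription factor, was at 0.01 (adjusted p = 0.985). The Th2 members that rose were Areg, Ccr8, Il1rl1, Il10, Ccr4 and Gata3, genes that Treg cells also express; the Th2 cytokines Il13 (-0.17) and Il5 (-0.16) did not pass and Il4 was lower (-0.71), a call lost without Treg array 1 or Treg array 2, while 2 Th2 genes were lower without Teff array 2. Il21, a cytokine of follicular helper and Th17 cells, fell by 2.07, and Il17a by 1.02. Tfh genes had 3 higher and 6 lower of 12. Of 17 cytotoxic effector genes, 3 were higher and 5 lower, against 13.7% higher and 11.2% lower over all genes tested. The higher counts of the Th1 and cytotoxic lists were not far from that share. The granzymes split. Gzmk read 4.99 and 5.26 on the Treg arrays and 9.16 and 9.33 on the Teff arrays, a fall of 4.12, opposite in direction to Gzmb.

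Most genes of cell division were higher in Treg arrays. Of 25 measured mitosis and spindle genes, 22 were higher and none lower (median 0.96), and 19 to 22 were higher under every setting tried. Ccnb2 (cyclin B2), which with its kinase drives entry into mitosis, read 8.55 and 8.39 on the Treg arrays and 5.85 and 5.95 on the Teff arrays and rose by 2.57 (SE 0.117, adjusted p = 4.61e-06). Ube2c, the ubiquitin-conjugating enzyme that works with the anaphase-promoting complex, read 8.25 and 7.84 on the Treg arrays and 6.38 and 6.17 on the Teff arrays, and Mki67, the proliferation marker Ki-67, read 9.74 and 9.87 on the Treg arrays and 8.16 and 8.44 on the Teff arrays. None of these overlapped between the groups, which was also so for 4227 of all 13231 genes in this direction. Plk1 (0.18), Aurka (0.33) and Anln (0.35) did not pass. Genes of DNA replication had a smaller median, with 10 of 19 higher and 1 lower (median 0.49). Tk1, which salvages thymidine, rose by 1.56 and Gins1, a part of the replicative helicase, by 1.38, while Pcna (0.01), Mcm2 (0.05), Mcm4 (0.00) and Mcm7 (0.11) did not pass and Cdt1, a licensing factor, was lower (-0.69).

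Most genes of glycolysis and of the hypoxia response rose. Of 25 measured members, 20 were higher and 1 lower (median 0.84). Pgk1, phosphoglycerate kinase, read 12.04 and 11.75 on the Treg arrays and 10.81 and 10.60 on the Teff arrays and rose by 1.19 (SE 0.118, adjusted p = 0.000189). Pkm, pyruvate kinase, read 10.34 and 10.36 on the Treg arrays and 9.28 and 9.05 on the Teff arrays, and Ldha, lactate dehydrogenase A, read 12.26 and 12.17 on the Treg arrays and 11.39 and 11.41 on the Teff arrays. They rose by 1.19 and 0.81. Ddit4, an inhibitor of mTORC1 induced by hypoxia, read 10.75 and 10.64 on the Treg arrays and 8.66 and 8.34 on the Teff arrays, a rise of 2.20, and Bnip3, a mitochondrial protein of the hypoxia response, rose by 1.62. Pdk1, which restrains the oxidation of pyruvate in mitochondria, was lower (-0.95), and Vegfa (-0.12), Adm (0.28), Car9 (-0.24) and Pfkp (0.31) did not pass.

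**Figure D3:**
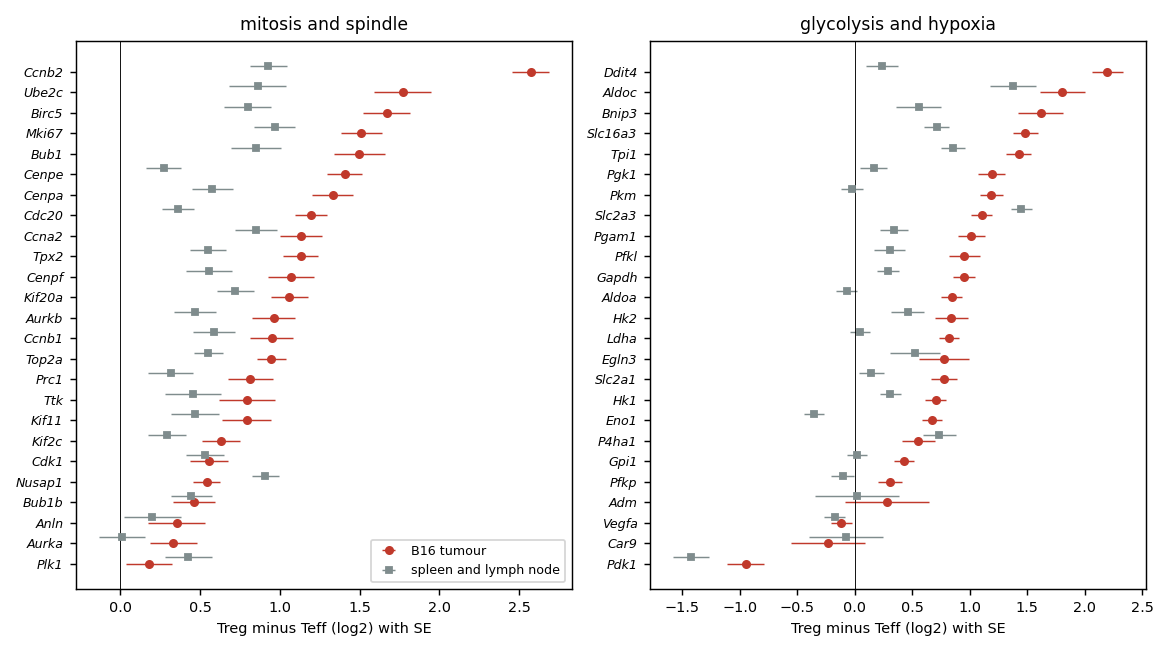
Difference between Treg and Teff arrays (log2, x axis) with its standard error for each measured gene of the mitosis list (left) and the glycolysis and hypoxia list (right), red circles for the tumour and grey squares for spleen and lymph node. Ccnb2 at 2.57 and Ddit4 at 2.20 lead the lists in the tumour, and most members lie further to the right in the tumour than in spleen and lymph node.

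The promoters of leading members of both lists are shown because members that moved together can be searched for shared letters. Each is the stretch of 250 bases before the gene's start in RefSeq on build GRCm38.p6, written in the gene's direction. In the mitosis genes, capitals mark the letters of the CCAAT box (CCAAT) and of the cell cycle genes homology region (TTTGAA), each on either strand. Matches were marked wherever they lay in the window, so a TTTGAA need not be a working homology region. In the hypoxia genes, capitals mark the core of the hypoxia response element (ACGTG) on either strand.
Ccnb2, chr9:70421555-70421804, minus strand: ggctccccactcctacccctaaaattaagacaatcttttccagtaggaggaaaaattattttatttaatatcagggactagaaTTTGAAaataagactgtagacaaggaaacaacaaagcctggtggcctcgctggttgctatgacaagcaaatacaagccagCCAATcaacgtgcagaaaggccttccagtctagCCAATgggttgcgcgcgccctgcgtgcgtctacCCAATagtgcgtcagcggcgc
Ube2c, chr2:164769679-164769928, plus strand: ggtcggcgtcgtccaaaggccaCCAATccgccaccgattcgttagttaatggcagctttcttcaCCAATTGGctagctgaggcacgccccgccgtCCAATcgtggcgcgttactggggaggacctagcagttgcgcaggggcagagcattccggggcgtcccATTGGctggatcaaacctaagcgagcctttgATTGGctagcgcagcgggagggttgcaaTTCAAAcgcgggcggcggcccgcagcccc
Ddit4, chr10:59951771-59952020, minus strand: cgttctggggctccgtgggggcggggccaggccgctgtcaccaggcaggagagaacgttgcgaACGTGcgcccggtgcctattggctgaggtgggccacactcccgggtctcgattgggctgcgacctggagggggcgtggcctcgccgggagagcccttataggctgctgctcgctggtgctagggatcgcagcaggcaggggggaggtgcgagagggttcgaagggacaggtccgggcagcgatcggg
Bnip3, chr7:138909507-138909756, minus strand: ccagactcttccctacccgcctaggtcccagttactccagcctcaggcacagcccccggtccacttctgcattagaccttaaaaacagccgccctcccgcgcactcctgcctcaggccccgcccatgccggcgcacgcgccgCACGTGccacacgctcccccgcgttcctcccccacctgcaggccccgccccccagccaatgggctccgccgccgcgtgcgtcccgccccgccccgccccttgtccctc
Ccnb2 holds 3 CCAAT boxes and 1 TTTGAA, and Ube2c holds 6 CCAAT boxes, of which a pair on opposite strands overlaps, and 1 TTTGAA. Ddit4 holds 1 ACGTG. The pair in Bnip3 overlaps, because the palindrome CACGTG carries the core on both strands. Of the 21 mitosis genes with a promoter in the table, 17 (81.0%) held a CCAAT box and 8 (38.1%) a TTTGAA, against 34.5% and 16.3% of all 27025 promoters. Of 24 glycolysis and hypoxia genes, 11 (45.8%) held ACGTG, against 16.6% of all promoters, and 8 of the 21 mitosis genes (38.1%) held it too. Aldoc, second in the hypoxia list with a difference of 1.80, held none in this window. These matches describe letters and show no binding.

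Signalling genes downstream of the receptors differed by pathway. Over all genes tested, 13.7% were called higher and 11.2% lower. Of 13 NF-kappaB genes, 9 were higher and none lower (median 0.49), with Rel at 1.01, Nfkb2 at 0.98 and Traf1, an adaptor of TNF receptors, at 0.87; Tnfaip3 (-0.46), Nfkbiz (-0.21), Rela (-0.13) and Birc3 (0.12) did not pass, and 1 gene was lower without Teff array 2. Of 17 immediate early factors, 5 were lower and 1, Nr4a2, higher (0.95). The Nr4a2 call was lost with the 4 tumour arrays alone and without Teff array 1, Treg array 2 or any 1 spleen array. No member was then higher with the tumour arrays alone or without Teff array 1, Treg array 2 or a spleen Teff array, and 2 were without Teff array 2. Fos, a subunit of the AP-1 factor, read 11.82 and 12.00 on the Treg arrays and 13.11 and 13.03 on the Teff arrays, a fall of 1.16, and Fosb (-1.41), Jun (-1.09), Ier2 (-1.15) and Egr1 (-0.93) were lower too. Jun lost its call without Treg array 1. In the interleukin-2 family, Il2rb, the receptor's signalling chain, rose by 1.42 and Cish, a feedback inhibitor of STAT5 signalling, by 1.08, while Socs3, a feedback inhibitor of cytokine signalling, read 9.58 and 9.89 on the Treg arrays and 11.84 and 11.84 on the Teff arrays, a fall of 2.11. Among genes that control cell death, Bcl2, which protects resting lymphocytes, read 4.94 and 4.75 on the Treg arrays and 7.21 and 6.98 on the Teff arrays, a fall of 2.25. Its relative Bcl2l1 (Bcl-xL) read 8.99 and 8.78 on the Treg arrays and 7.69 and 7.78 on the Teff arrays, a rise of 1.15, so that protective members of the family moved in opposite directions. Genes of the S100, galectin and annexin group had 10 of 18 higher and none lower, with the intermediate filament gene Vim at 1.44. Heat shock and unfolded protein genes had 1 higher and 8 lower of 20, but 3 lower without Teff array 2 and 4 without Treg array 1. The 1 higher, Calr (0.32), lost its call without any 1 of the 4 tumour arrays, without either spleen Teff array, with the 4 tumour arrays alone, with the replicate block and with a repeated quantile normalization. Interferon response genes (6 higher and 7 lower of 23) had calls in both directions. So had Polycomb and DNA methylation genes (3 and 3 of 19), the latter near the shares over all genes. For the latter, 1 was higher without Treg array 2, and 0 were lower without Teff array 1 or Treg array 1 and 1 without Teff array 2 or Treg array 2.

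The remaining lists held single members that moved far. Over all genes tested, 13.7% were called higher and 11.2% lower, and the TGF-beta counts below were not far from these shares. Of 13 killer cell lectin-like receptors, Klrg1 rose, and Klrd1 (CD94), its partner Klrc1 (NKG2A, -1.70), Klrk1 (NKG2D, -3.48) and Klrb1f (-1.56) fell. Of the 13, 7 lay under the lower quartile on all 4 tumour arrays. Interleukin-1 family receptors had 4 higher and none lower of 11, led by Il1r2 and Il1rl1, and 2 higher without Teff array 1, Teff array 2 or Treg array 1. Proximal T cell receptor signalling had 7 lower and 4 higher of 18. Prkcq, the kinase PKC-theta, fell by 1.62 and Txk, a kinase of the Tec family, by 1.46. The 4 higher calls numbered 0 without Teff array 1 or Treg array 2 and 1 without Treg array 1. TGF-beta pathway genes had 3 higher and 2 lower of 14, with Tgfbr2, the receptor chain that binds the ligand, at -1.04; the higher calls numbered 1 without Teff array 1, Teff array 2 or Treg array 1 and 0 without Treg array 2. Dual specificity phosphatases, which switch off MAP kinases, split evenly, 3 higher and 3 lower of 6, from Dusp16 at 1.52 to Dusp10 at -1.36. Cholesterol and fatty acid genes had 6 higher and 2 lower of 21, with the fatty acid binding protein gene Fabp5 at 1.22 and the cholesterol exporter genes Abca1 at -1.25 and Abcg1 at -0.71. Th17 genes had 2 higher and 2 lower of 7.

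Several of the largest falls concerned genes best known from dendritic, myeloid or natural killer cells: of the 15 largest, Ccr9, Ly6d and Spib are in the plasmacytoid dendritic cell list and Tyrobp in the macrophage and dendritic cell list. D13Ertd608e read 4.41 and 5.38 on the Treg arrays and 11.52 and 10.71 on the Teff arrays, a fall of 6.22. Ccr9, a gut-homing receptor also carried by plasmacytoid dendritic cells, read 4.36 and 6.06 on the Treg arrays and 11.84 and 10.81 on the Teff arrays, a fall of 6.12 (SE 0.507, adjusted p = 7.16e-05). Mpeg1, which encodes the pore-forming protein perforin-2 of phagocytes, fell by 5.27, Tyrobp, the adaptor DAP12 of myeloid and natural killer cell receptors, by 4.94, Spib, a transcription factor of B cells and plasmacytoid dendritic cells, by 4.71, and Klrd1, the lectin-like receptor CD94, by 5.49. The others of the 15 were Klra17 (-5.02), Ly6d (-5.00), Csf2rb2 (-4.96), Cdh1 (-4.94), Lifr (-4.83), Tbc1d8 (-4.81), Lair1 (-4.68), Ly86 (-4.53) and Ctsh (-4.39). The Treg arrays of Cdh1 and Lifr lay under the lower quartile of their array.

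Markers of other cells were therefore read as whole lists. Of 14 measured plasmacytoid dendritic cell genes, 12 were lower in Treg arrays and none higher (median -2.45), with Runx2 (-0.24) and Tlr9 (0.04) not passing. Their summed linear level was 3667 and 3904 on the Treg arrays, 19150 and 11300 on the Teff arrays, and 2016 to 3800 on the 4 arrays of spleen and lymph node. Both tumour Teff arrays thus stood above all other arrays, and 13 of the 14 genes read higher on Teff array 1 than on Teff array 2. Tcf4, the lineage factor of plasmacytoid dendritic cells, read 5.79 and 6.23 on the Treg arrays and 10.35 and 9.42 on the Teff arrays. The count of lower calls stayed at 11 or 12 under every setting tried. Of 22 macrophage and dendritic cell genes, 7 were lower and 1 higher, and the summed level was 6973 and 5843 on Treg against 17980 and 11100 on Teff arrays. The class II genes H2-Aa (-4.23), H2-Ab1 (-3.22) and H2-Eb1 (-2.84), Itgax (-2.18), Fcer1g (-2.66), Cd68 (-2.40) and Tyrobp fell. Cd14, a lipopolysaccharide co-receptor of monocytes and macrophages, was the 1 member called higher (0.64). The remaining 14 members did not pass. C1qa, a chain of complement C1q, read 6.59 and 5.0 on the Treg arrays and 5.14 and 3.79 on the Teff arrays, and Lyz2, lysozyme, read 7.94 and 6.63 on the Treg arrays and 6.41 and 6.35 on the Teff arrays. The count of higher calls rested on Treg array 2, without which 10 of the 22 were called higher, and 2 were without Teff array 1. Itgam lay under the lower quartile on all 4 arrays. The part of such cells in the falls, of these lists and of the T cell lists alike, was not tested.

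The other marker lists held fewer called genes. Over all genes tested, 13.7% were called higher and 11.2% lower. The B cell, stromal, neutrophil and plasma cell counts below were not far from these shares. Under the lower quartile on all 4 tumour arrays lay 7 of 11 neutrophil, 5 of 12 B cell and 3 of 8 NK cell genes. Cd8a (-1.14) and Cd8b1 (-1.78) were lower, with a summed level of 154 and 142.1 on Treg and 646.4 and 342 on Teff arrays. NK cell genes had 3 lower of 8, namely Klrk1 (-3.48), Eomes (-2.04) and Gzma (-1.98), while the NK-defining Ncr1 was at -0.02 and Klrb1c at -0.31. B cell genes had 2 higher and 2 lower of 12, with Ms4a1 (CD20) at -0.09; the higher calls numbered 0 without Treg array 2 and 1 with the 4 tumour arrays alone and without Teff array 2, Treg array 1 or a spleen Treg array, and the lower calls 1 without Teff array 2 or Treg array 2. Melanoma genes were on the tumour arrays of both groups. Dct, an enzyme of melanin synthesis, read 10.23 and 9.76 on the Treg arrays and 10.31 and 9.12 on the Teff arrays, against at most 4.15 on the spleen and lymph node arrays. The 10 melanoma genes summed to 2483 and 1825 on Treg and 2571 and 1290 on Teff arrays, and 266.5 to 279.5 on the others, and their part in the values was not tested. Gpnmb was the 1 member called between Treg and Teff (0.62), lost without Teff array 2 or Treg array 1, and 3 were called without Teff array 1. Stromal and endothelial genes had 2 lower of 12 (Cdh5 -1.76, Pecam1 -1.07) and 1 higher without Treg array 1, neutrophil genes 2 higher of 11 (Ltf 1.83, Mmp9 1.57), and plasma cell genes 1 higher, Prdm1, and 1 lower of 5, Xbp1 (-0.63), lost with the 4 tumour arrays alone and without Teff array 1 or Treg array 2. None of 5 erythroid genes was called by limma.

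**Figure D4:**
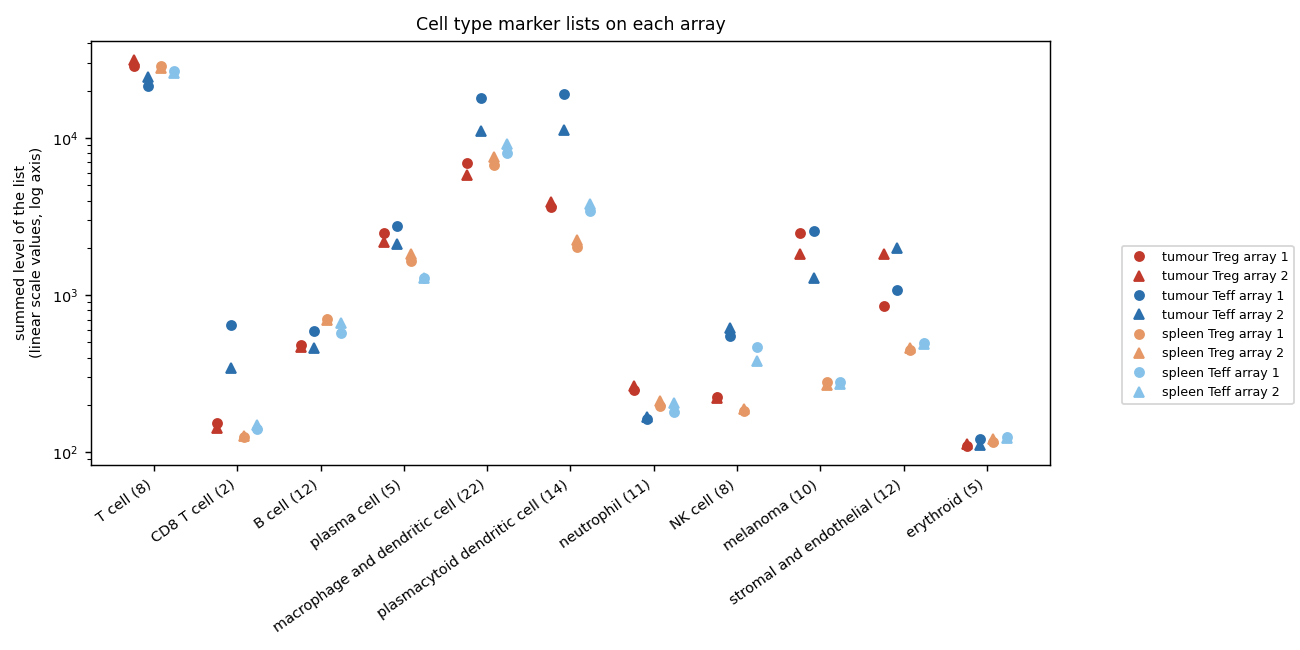
Summed level of each cell type marker list (y axis, linear scale values on a log axis, number of genes in brackets) on each of the 8 arrays, coloured by group with circles for array 1 and triangles for array 2. The tumour Teff arrays stand above all others for plasmacytoid dendritic cell genes (19150 and 11300), and all 4 tumour arrays stand above the spleen and lymph node arrays for melanoma genes.

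The tumour contrast was set beside the same contrast in spleen and lymph node, where 954 genes (7.21%) were higher and 808 (6.11%) lower in Treg arrays. Of the genes higher in the tumour, 661 were also higher there, 36.6% of the tumour list and 69.3% of the spleen list, and 536 were lower in both, 36.1% and 66.3%. Calls in opposite directions concerned 40 genes. The difference between the contrasts was tested as an interaction, and 731 genes (5.52%) passed, 348 with a higher Treg minus Teff difference in the tumour than in spleen and lymph node (2.63%) and 383 with a lower one (2.89%). The sex of the mice and the tissue cannot be told apart in this test: Xist, the RNA that silences an X chromosome in females, was at most 2.62 on the tumour arrays and at least 10.57 on the others, and the Y-linked gene Ddx3y was at least 9.91 on the tumour arrays and at most 2.81 on the others. All 4 tumour arrays thus stood on one side and all 4 others on the other side in both genes. The count also rested on single arrays, with 424 genes passing without tumour Treg array 1, 386 and 347 without spleen Teff array 1 or 2, and 484 and 401 without spleen Treg array 1 or 2. The higher calls then numbered 191, 180, 160, 251 and 176, and the lower calls 233, 206, 187, 233 and 225; without tumour Treg array 2 the higher calls numbered 229.

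**Figure D5:**
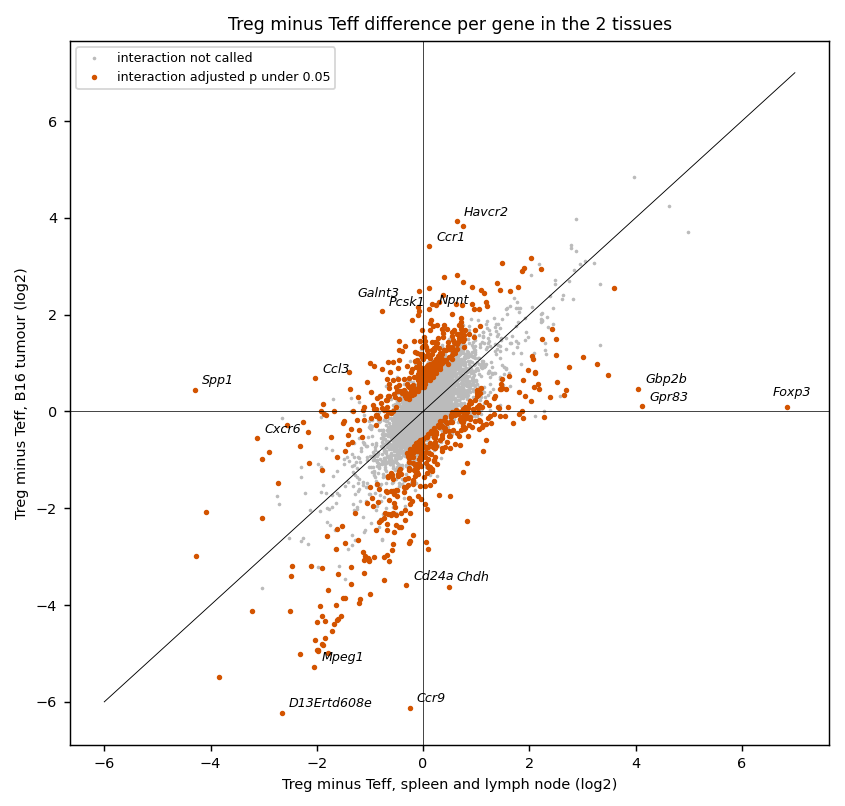
Treg minus Teff difference of each of 13231 genes in spleen and lymph node (x axis, log2) and in the tumour (y axis, log2), with the 731 genes that passed the interaction test in orange, the line of equal differences, and the 16 named genes. Foxp3 and Gpr83 lie far to the right near 0 on the y axis, and Havcr2 and Ccr1 lie high near 0 on the x axis.

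Foxp3 had the largest interaction of the named genes, at -6.75 (SE 0.128, adjusted p = 1.86e-07). Gpr83, a receptor gene of the Treg core list, read 5.20 and 5.11 on the Treg arrays and 4.86 and 5.23 on the Teff arrays in the tumour, with overlapping groups, and differed by 4.12 in spleen and lymph node (interaction -4.01, adjusted p = 0.000232). Of the 26 Treg core genes, 8 passed with a lower difference in the tumour and none with a higher one, among them Nrp1 (neuropilin-1), with 0.10 in the tumour and 1.42 in spleen and lymph node. Il2ra, Ctla4 and Ikzf4 did not pass (interactions -0.38, -0.20 and 0.10, adjusted p = 0.393, 0.53 and 0.837). The other genes with the most negative interactions were Ccr9 (-5.87), Chdh (-4.11), Gbp2b (-3.57), D13Ertd608e (-3.56), Cd24a (-3.27) and Mpeg1 (-3.22). Of these, all but Gbp2b read higher on tumour Teff array 1 than on tumour Teff array 2.

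Havcr2 and Ccr1 rose in the tumour and did not pass in spleen and lymph node, where they differed by 0.64 (adjusted p = 0.12) and 0.11 (adjusted p = 0.84). Their interactions were 3.29 (adjusted p = 0.00166) and 3.30 (adjusted p = 0.00212). Pdcd1 followed the same pattern, with 0.06 in spleen and lymph node and an interaction of 1.27 (adjusted p = 0.00268). Pcsk1, a prohormone convertase (2.85), Galnt3, which starts O-glycosylation (2.56), and Npnt, the matrix protein nephronectin (2.43), also rose in the tumour by 2.07, 2.48 and 2.55, while Pcsk1 was lower in Treg arrays of spleen and lymph node (-0.78). For Spp1 (osteopontin), Ccl3 and Cxcr6 the larger difference lay in spleen and lymph node, where they were lower in Treg arrays by 4.30, 2.03 and 3.12, while none was called in the tumour (0.45, 0.69 and -0.55). Of 17 naive and lymphoid homing genes, 8 had a lower Treg minus Teff difference in the tumour than in spleen and lymph node and 1, Cd27, a higher one, with interactions of -2.77 for Bach2 and -2.70 for Tcf7. Of the 25 glycolysis and hypoxia genes, 8 had a higher difference in the tumour and none a lower one, with Ddit4 at 1.96 and Pkm at 1.21, and in spleen and lymph node 5 were higher and 2 lower. Of the 25 mitosis genes, 3 passed, Ccnb2 (1.64), Cenpe (1.13) and Cdc20 (0.83), and 14 were higher in spleen and lymph node.

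Probe sets of 1 gene could disagree. Of the 5236 genes with more than 1 probe set, 1022 had more than 1 called, and 12 of these had calls in opposite directions. Itgb5, an integrin beta chain, had 3 probe sets higher, by 0.72, 0.70 and 0.86, and the brightest one lower, at -0.65, so that its place among the 5 lower of 16 integrin genes is uncertain. The other integrin calls included Itgav, the alpha chain that pairs with several beta chains (2.22), and Itga4, a homing integrin chain (-2.12). Aebp2, a Polycomb cofactor, had probe sets at 0.66 and -0.80. Msl1 (0.69 and -0.39), Ppp2r3c (0.39 and -0.69) and the T cell receptor beta segments named TCRB-J in the deposited annotation (0.48, -0.65 and -1.07) also had calls in both directions.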

How the data were processed

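Per the submitters' processing notes, the authors made the deposited log2 expression values with RMA (robust multi-array average: background correction, quantile normalization and summary of probes on the log2 scale), with no version given. Quantile normalization gives arrays alike distributions, so a change shared by most genes would not show. Of 22690 probe sets, 64 controls were left out. Names came from the deposited annotation table, updated through RefSeq tables (19501 by current symbol, 1160 by synonym, 540 by accession, 396 kept, 1029 without a name); 21 value columns of that table were not used.

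All 22626 probe sets on the 8 arrays were fitted with limma 3.58.1 in R 4.3.3 (4 group means, no block, moderated by eBayes, Benjamini-Hochberg adjustment). For each gene, 1 probe set was used, the brightest on average across the 8 arrays. The fit was tested on simulated data. Named genes were the 15 largest rises and falls with adjusted p under 0.05 and arrays that did not overlap, the 8 largest interactions per direction, up to 6 members per list, members that did not pass, and genes with opposing probe sets; unnamed clones and X- or Y-linked sex genes were left out. Some further list members were named after their values were seen, and a few members are not reported here. The comparison, the members and the 45 lists were chosen with earlier results of these data known. Replicate numbers are not known to pair samples. Deviations from group means of tumour Teff and Treg arrays with the same number correlated at 0.176. Those of the other pairs of groups correlated at -0.121 to 0.052. Some marker lists shifted alike by number in both tumour groups. The median of array 1 minus array 2 was 0.61 (Teff) and 0.78 (Treg) for macrophage and dendritic cell genes. It was -0.51 and -0.94 for stromal and endothelial genes, but 0.92 and -0.19 for plasmacytoid dendritic cell genes. A shared origin of same-numbered tumour arrays was not tested. Alternatives were other variance settings, filters, probe set rules, median alignment, a replicate block and leaving out each array.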

Additional observations from a re-analysis of the deposited data

Results flagged for a closer look

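Of 219 genes named in the report, 87 passed limma's interaction test at an adjusted p under 0.05, against 5.52% of all genes tested. The test compares the Treg minus Teff difference in the tumour with that in spleen and lymph node. The named genes include the 8 largest interactions per direction, chosen by this same test, and other genes picked for large differences. Their count is therefore not a result about the named genes. The values in brackets are tumour minus spleen on the log2 scale. In these 8 arrays the sex of the mice and the tissue cannot be told apart, and the number of genes that passed rested on single arrays.

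The Treg minus Teff difference was lower in the tumour for 52 of them. Genes of the Treg core list in this set were Foxp3 (-6.75), Gpr83 (-4.01), Gata1 (-1.55), Rgs1 (-1.36), Nrp1 (-1.32) and Fgl2 (-1.05). Genes of naive and conventional T cells were Bach2 (-2.77), Tcf7 (-2.70), Il2 (-1.61), Klf2 (-1.39), Satb1 (-1.19) and Tnfsf8 (-1.08). Genes of the plasmacytoid, macrophage and dendritic cell lists were Ccr9 (-5.87), Ly6d (-3.20), Tyrobp (-2.94), Tcf4 (-2.69), Spib (-2.68), H2-Aa (-2.33) and Cd68 (-1.95), whose levels were highest on the tumour Teff arrays. Among the largest falls that belong to no marker list were D13Ertd608e (-3.56), Mpeg1 (-3.22), Csf2rb2 (-2.98), Cdh1 (-2.96), Lifr (-2.94), Tbc1d8 (-2.90), Lair1 (-2.83), Ly86 (-2.81), Ctsh (-2.72) and Klra17 (-2.71).

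Genes of killer cell receptors, cytotoxic cells and CD8 cells with a lower difference were Klrk1 (-2.75), Klrd1 (-1.64), Klrb1f (-1.19), Gzma (-1.44), Gzmk (-0.90), Cd8b1 (-1.51) and Cd96 (-0.72). Signalling, survival and transport genes were Bcl2 (-1.92), Socs3 (-1.70), Cish (-1.0), Prkcq (-1.12), Fos (-1.05), Fosb (-1.23), Abca1 (-2.01) and Abcg1 (-0.94). Surface molecules and ligands were Tnfsf11 (-1.64), Tnfrsf25 (-0.71), Itga4 (-1.46), Dpp4 (-1.28), Ccr6 (-1.0) and Cd24a (-3.27), and Chdh, choline dehydrogenase (-4.11), and Gbp2b, a guanylate-binding protein (-3.57), completed this direction.

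The difference was higher in the tumour for 35 of them. Receptors and adhesion genes were Ccr1 (3.30), Havcr2 (3.29), Cxcr6 (2.57), Pdcd1 (1.27), Cx3cr1 (1.19), Ccrl2 (1.57), Cd27 (0.72), Itgav (1.30) and Npnt (2.43). Soluble mediators and ligands were Spp1 (4.74), Ccl3 (2.71), Il21 (2.02), Ccl9 (1.64), Il4 (1.61), Cd70 (1.52), Ccl5 (1.44), Ebi3 (1.04) and Ltf (1.70). For Il21 and Il4, which were lower in tumour Treg arrays, a positive value means a larger fall in spleen and lymph node. Spp1, Ccl3 and Cxcr6 were not called in the tumour, and differed by -4.30, -2.03 and -3.12 in spleen and lymph node. Tbx21, named below, was not called in the tumour either. Glycolysis and hypoxia genes were Ddit4 (1.96), Pkm (1.21), Pgk1 (1.03) and Ldha (0.77), and mitosis genes were Ccnb2 (1.64), Cenpe (1.13) and Cdc20 (0.83). Transcription, signalling and other genes were Pcsk1 (2.85), Galnt3 (2.56), Tbx21 (1.32), Tmem158 (1.13), Vim (0.96), Pparg (0.87), Dusp16 (0.83), Traf1 (0.70), Aebp2 (0.58) and Nfkb2 (0.50). The other Aebp2 probe set did not pass limma's interaction test (0.09, adjusted p = 0.831) and was lower in tumour Treg arrays (-0.80).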

How the results depend on the processing

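The tumour comparison called 2692 to 3677 genes (3290 as reported) over the alternatives that kept all arrays or only the 4 tumour arrays, and 2225 to 3236 with 1 array left out. With 1 array left out, higher calls ranged from 1257 to 1791 and lower calls from 968 to 1445. Aligning the array medians split the calls into 1900 higher and 1409 lower. Foxp3 remained uncalled under every setting, with differences of 0.05 to 0.15. Of 326 called genes that were rechecked under 16 settings, 254 kept their call in every one. Itgb5 changed sign with the mean of its probe sets (0.41, adjusted p = 0.0496). The interaction called 347 to 707 genes with 1 array left out (731 as reported), 160 to 296 higher and 187 to 411 lower, and with an intensity trend in the variance 1092 genes, 540 of them higher. With the replicate number as a block, 3097 genes were called in the tumour and 645 in the interaction; the numbers are not known to pair samples. Probe sets near the bottom of the scale limit the smallest differences: 2503 genes lay under the lower quartile on all 4 tumour arrays.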
